A study of Homo sapiens with 4 samples.

Results

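The genes described here are APC, APC2, AXIN1, AXIN2 and GSK3B, which encode scaffolds and a kinase of the β-catenin destruction complex, CTNNB1, which encodes β-catenin itself, and TCF7, TCF7L1, TCF7L2 and LEF1, which encode the transcription factors that β-catenin binds in the nucleus. These 10 genes, of 20163 protein-coding genes in the annotation, were chosen by name, and every tile overlapping a gene span extended by 5 kb on each side was counted. Their windows held 51 of the 72455 tiles of 1000 bp that the authors listed as differentially methylated in at least 1 of 3 deposited tables.

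DNA methylation was measured by reduced representation bisulfite sequencing (RRBS) in clones of SKOV3, an established cell line from a human ovarian cancer, with 4 libraries, 1 per clone. ShC-S carried a control shRNA and ShLy75-S a shRNA against LY75, an endocytic receptor of the mannose receptor family; LY75 was inactivated by CRISPR in Ly75-KO-S. In Ly75-OV-S, LY75 was expressed again in LY75 knockdown cells, so that this clone also carried the shRNA and differed from Ly75-KO-S in more than LY75. In the study, ShC-S and Ly75-OV-S stand for the mesenchymal-like and ShLy75-S and Ly75-KO-S for the epithelial-like state of these cells, and all were grown in RPMI with fetal bovine serum. The tables are of ShC-S vs. ShLy75-S (the knockdown comparison), of Ly75-OV-S vs. Ly75-KO-S (the knockout comparison) and of a mix of all 4 libraries, which shares its libraries with the other tables. As each clone was sequenced once, no difference has a replicate check, and clone and LY75 status cannot be told apart. Methylation per library and read numbers are not in the tables, so the identity of the cells could not be checked on marker genes and the depth behind each tile is unknown.

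A tile is called a DMR here when the authors listed it, which by the names of the tables means a difference over 25 points with a q-value under 0.01. The tables also give that difference and its p- and q-value, but these columns are the authors' own results and were not used, so the text gives where DMRs lay and neither their direction nor their size. RRBS reads start at the cut sites of MspI, an enzyme that cuts CCGG, and cover only the ends of short fragments. A tile was therefore called reachable when it held at least 1 CpG within 50 bp of an end of an MspI fragment of 40 to 220 bp in the reference. This reach is a prediction, and 93.4% of the tiles of the knockdown table, 90.4% of those of the knockout table and 94.6% of those of the mix were reachable by it, so some tiles outside it were measured. A tile that is not a DMR was either under the authors' thresholds or not covered, which cannot be told apart in the tables. A gene's main transcription start site (TSS) is that of its canonical transcript in GENCODE.

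In cells without a Wnt signal, the scaffolds APC and Axin hold β-catenin beside the kinases that mark it for ubiquitination and breakdown. When a Wnt ligand is bound at the membrane the complex is inhibited, and β-catenin accumulates, enters the nucleus and binds TCF and LEF proteins, which sit on DNA with Groucho/TLE co-repressors in its absence. Loss of APC or Axin function and stabilising changes of β-catenin are known drivers of cancer, and in ovarian cancer they are best known from the endometrioid type.

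Each of the 10 genes had a DMR in at least 1 table, 9 in the knockdown comparison, 8 in the knockout comparison and 7 in the mix. Among all protein-coding genes, 60.3%, 46.8% and 38.2% had one in the same order. The windows of these genes were longer than most, however, with a median of 24.5 reachable tiles against 10 over all protein-coding genes. APC, APC2, AXIN1, TCF7L1, TCF7L2 and LEF1 had a DMR in every table, of which the mix shares its libraries with the others. The shares of all protein-coding genes with a DMR in every table, or in at least 1, were not counted. CTNNB1 was the gene without one in the knockdown comparison, and AXIN2 and TCF7 were those without one in the knockout comparison. In the mix, AXIN2, GSK3B and CTNNB1 had none.

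Taken per reachable tile, the shares of the 10 genes together lay within a few points of those of the genome. The knockdown comparison listed 38 of their 287 reachable tiles (13.2%; exact binomial 95% interval 9.54 to 17.7%), where 12.4% of the 384794 reachable tiles of the genome were listed. In the knockout comparison it was 14 of 287 (4.88%; 2.69 to 8.05%) beside 6.65% of the genome. With fragments of 100 to 220 bp the share in the knockout comparison was 2.86%, beside 6.03% of the genome. The mix also held 14 (4.88%) beside 5.16% of the genome. The intervals cover counting error only and treat tiles as independent, which adjoining tiles are not. APC2 alone supplied 14 of the 38 reachable DMRs of the knockdown comparison, and without it the share was 24 of 253 (9.49%; 6.17 to 13.8%). Without APC2, the share in the knockout comparison was 4.74% and that in the mix 3.16%. The genes of the destruction complex and the TCF and LEF genes had similar shares, 13.3% of 143 and 13.6% of 140 reachable tiles in the knockdown comparison and 3.50% and 5.71% in the knockout comparison.

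**Figure D1:**
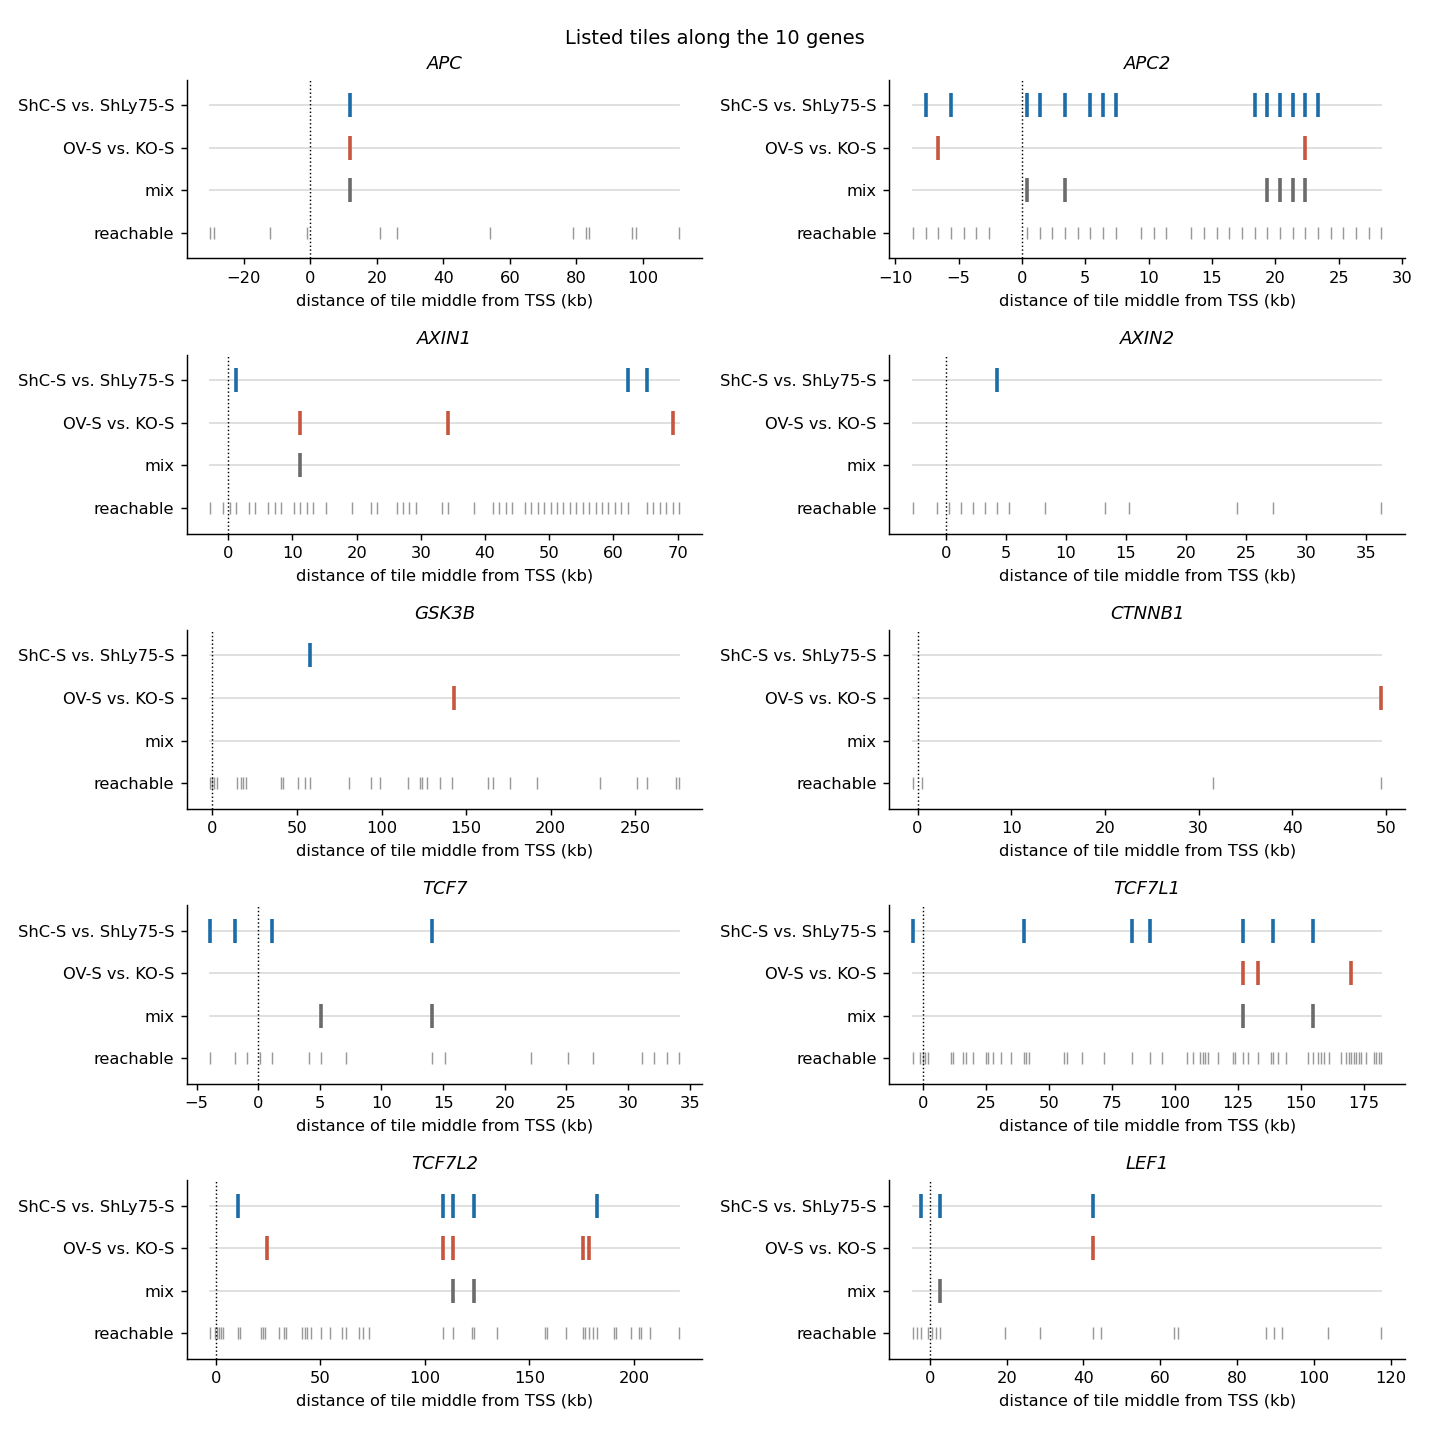
Listed tiles along each gene, by distance of the tile's middle from the canonical TSS (kb; negative is upstream). Upper rows are the DMRs of each table, the lowest row the reachable tiles, the dotted line the TSS, and the grey lines run over the reachable and listed tiles. APC2 held 15 of the 51 tiles, and 28 of the 51 lay wholly in introns.

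**Figure D2:**
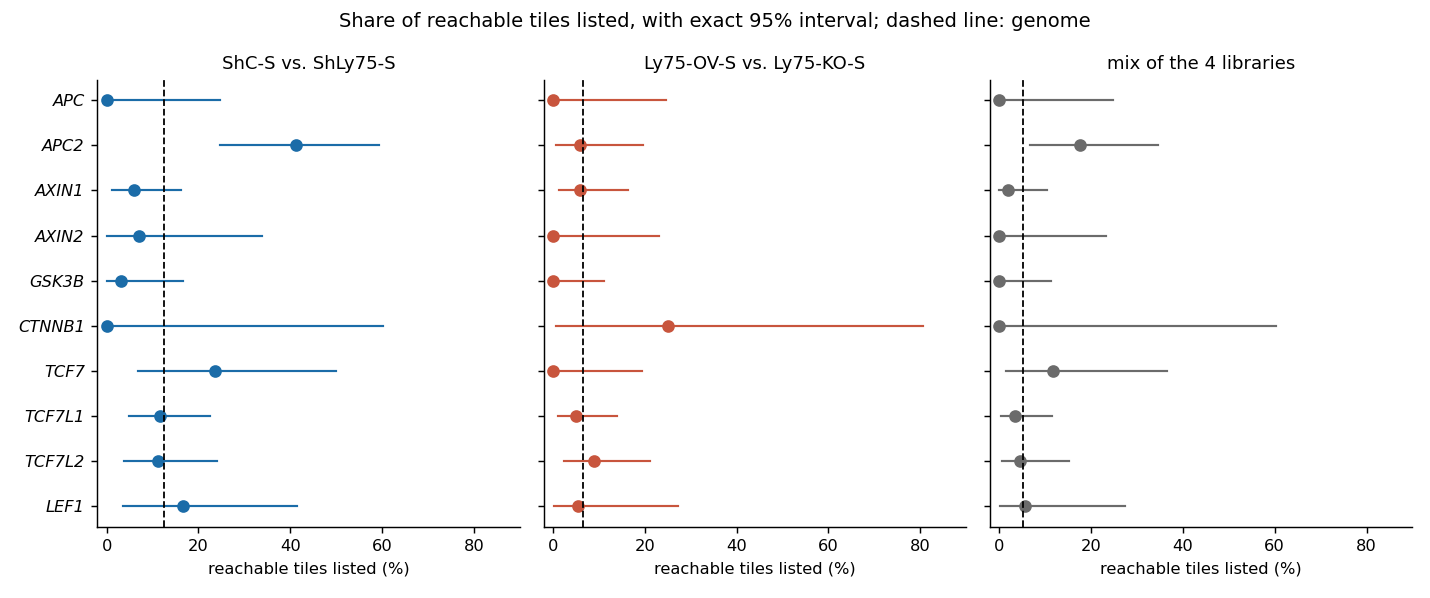
Share of each gene's reachable tiles that were DMRs, in percent, with the exact binomial 95% interval, for each table. Dashed lines are the shares of the genome (12.4%, 6.65% and 5.16%), and APC2 in the knockdown comparison stood at 41.2%.

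By position, the DMRs of these genes were spread over introns, exons and flanks. Of the 51 tiles, 28 lay wholly in introns of the canonical transcript, 14 touched one of its exons, and 9 lay outside it without an exon, 7 of them upstream and 2 downstream. Coding bases of the canonical transcript were held by 9 tiles, all of them in the knockdown comparison. Most of these 9, and most of the 14 on exons, were in APC2. The shares of reachable tiles on exons or coding bases were not counted, so no difference between the comparisons can be read from these counts. Wholly intronic tiles were 19 of the 39 DMRs of the knockdown comparison (48.7%), 13 of the 17 of the knockout comparison (76.5%) and 9 of the 15 of the mix (60.0%). Of the 287 reachable tiles, 175 (61.0%) were wholly intronic. Among the DMRs that were reachable it was 18 of 38 (47.4%), 10 of 14 (71.4%) and 8 of 14 (57.1%), in the same order. The difference of the DMRs from the reachable tiles was not tested. The knockout comparison had 1 DMR on an exon, the APC2 tile described below. A run of adjacent DMRs was formed by 14 tiles, all of them in APC2. Another annotated gene overlapped 13 of the 51 tiles, and there the tile belongs to both genes.

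The start of a gene is where methylation is most often linked to silencing. The tile with the canonical TSS was reachable in 9 of the 10 genes, and it was a DMR in 1 of these 9, APC2, in the knockdown comparison and the mix. In the knockout comparison it was 0 of 9, which allows a share of up to 33.3% (the limit that a count of 0 leaves, taken as 3 counts, for counting error only). Over the 15571 reachable tiles that hold a canonical TSS of a protein-coding gene, 13.1% were DMRs in the knockdown comparison, 3.12% in the knockout comparison and 5.78% in the mix. A departure from these shares was not tested, and 9 tiles are few for one. With any tile within 2 kb of the TSS of any basic transcript, 5 of the 10 genes had a DMR in the knockdown comparison (APC2, AXIN1, AXIN2, TCF7 and LEF1), where 30.1% of all protein-coding genes did. TCF7L2 was the 1 such gene of the knockout comparison, beside 14.2% of all protein-coding genes, and APC2 and LEF1 were those of the mix, beside 15.2%. The 10 genes had between 5 and 15 tiles within 2 kb of a TSS. That number was not counted over all protein-coding genes, so no excess can be read from these shares.

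The main TSS of APC was outside the predicted reach. APC encodes the large scaffold and tumour suppressor that is frequently lost in colorectal tumours, and it lies on chromosome 5 from 112043215 to 112181936 on the plus strand of GRCh37. The tile with its canonical TSS, from 112073001 to 112074000, held 39 CpGs, of which 0 were in predicted reach. Of 149 tiles in the APC window 13 were reachable, and none of these was a DMR in any table. The single DMR of APC, from 112085001 to 112086000, lay in intron 1 of the canonical transcript, 11918 bp past the TSS at its middle, with 19 CpGs. It was listed in all tables, although none of its CpGs was in predicted reach with fragments of 40 to 220 bp, and 3 were with fragments of 20 to 300 bp, so this tile was measured outside the main prediction. It is 1 of the 6 tiles that both single comparisons listed.

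APC2, the homologue of APC best known from the nervous system, carried the densest set of DMRs. It lies on chromosome 19 from 1446301 to 1473243 on the plus strand, and 34 of its 38 tiles were reachable, the highest share of the 10 genes (89.5%). The knockdown comparison listed 14 of these 34 tiles (41.2%; exact binomial 95% interval 24.6 to 59.3%), the knockout comparison 2 (5.88%) and the mix 6 (17.6%). CpG content was also highest here, with 52.4 CpGs per kb of window, where the other genes had between 8.21 and 32.7. Among reachable tiles of 50 or more CpGs, 17.0% of the genome were DMRs in the knockdown comparison, 3.25% in the knockout comparison and 7.30% in the mix. The 10 genes together had 8 of 46 such tiles listed (17.4%) in the knockdown comparison, 1 (2.17%) in the knockout comparison and 5 (10.9%) in the mix. Of the 14 of APC2, the knockdown comparison listed 8, and of the 32 in the other 9 genes it listed 0, which allows a share of up to 9.38%. The knockout comparison listed 0 of the 14, which allows up to 21.4%, and 1 of the 32, an AXIN1 tile. The split of APC2 from the other genes was made after their DMRs had been seen.

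The APC2 DMRs of the knockdown comparison lay in blocks. Upstream, chr19:1442001-1443000 and chr19:1444001-1445000 were listed by the knockdown comparison and the tile between them by the knockout comparison, with 28, 35 and 40 CpGs. The next 5 tiles, up to the TSS, had between 35 and 120 CpGs each and held no DMR, although 3 were reachable. At the TSS (position 1450120), chr19:1450001-1451000 with 70 CpGs was listed by the knockdown comparison and the mix, and the next tile, in intron 1 with 21 CpGs, by the knockdown comparison alone. The tile chr19:1453001-1454000, over exons 2 to 4 with 413 coding bases and 52 CpGs, was again in the knockdown comparison and the mix. A block of 3 tiles from 1455001 to 1458000 covered exons 5 to 10 and was in the knockdown comparison alone. No DMR was listed over the next 10 tiles, from 1458001 to 1468000, of which 8 were reachable with 223 CpGs in reach and up to 120 CpGs in a tile.
The longest block closed the gene. The 6 tiles from 1468001 to 1474000 overlapped exon 15, the last, which holds most of the coding sequence and the 3′ untranslated region. The last tile, with 243 bases on this exon, ran past the end of the gene. All 6 were DMRs of the knockdown comparison. The mix listed 4 of them and the knockout comparison 1. Its tile chr19:1469001-1470000 lay wholly in coding sequence and held 146 CpGs, the most of any DMR of the 10 genes. The tile chr19:1472001-1473000, wholly untranslated and with 42 CpGs, was in all tables. C19orf25, an open reading frame on the minus strand from 1461142 to 1479218, overlaps this whole block. The densest 150 bases of the TSS tile and of the CpG-richest tile, outside untranslated regions, show the contrast in CpG content, with 11 and 30 CpGs. Here and below, stretches are of GRCh37 on the strand of the gene, with each CpG in capitals.
APC2 intron 1, TSS tile, chr19:1450363-1450512: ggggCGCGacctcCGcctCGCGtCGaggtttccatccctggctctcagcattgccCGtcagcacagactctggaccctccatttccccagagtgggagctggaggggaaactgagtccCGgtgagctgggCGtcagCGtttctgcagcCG
APC2 exon 15, coding, chr19:1469542-1469691: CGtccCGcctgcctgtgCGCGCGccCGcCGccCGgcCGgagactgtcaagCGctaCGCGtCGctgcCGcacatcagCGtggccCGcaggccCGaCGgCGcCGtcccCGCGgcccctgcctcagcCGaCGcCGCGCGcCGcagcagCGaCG

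**Figure D3:**
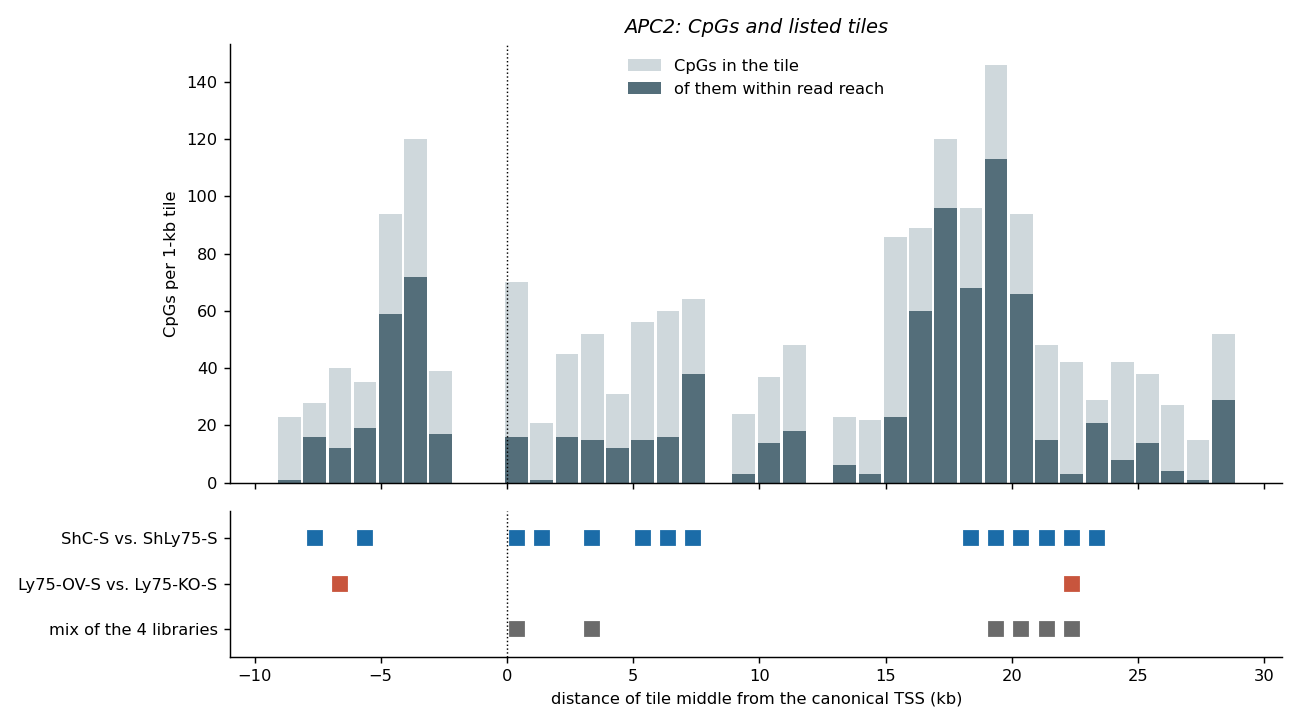
CpGs in each 1-kb tile of APC2 (light bars) and those within reach of reads (dark bars), by distance from the canonical TSS in kb, with the DMRs of each table beneath as squares. Tiles that were neither reachable nor listed are left blank. The DMRs of the knockdown comparison lie upstream, from the TSS to exon 10 with gaps, and in a block at the end of the gene. The CpG-rich tiles just upstream of the TSS hold none, nor does a tile of 120 CpGs at 17.38 kb.

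In both Axins the TSS tile was in no table, and a DMR lay within 2 kb of a TSS in the knockdown comparison. AXIN1, the scaffold that limits assembly of the destruction complex, lies on chromosome 16 from 337440 to 402723 on the minus strand and had 51 reachable tiles of 76. Its TSS tile held 160 CpGs, the most of the 10 genes, with 115 in reach, and was in no table. The adjoining tile chr16:401001-402000, in intron 1 with 31 CpGs, was a DMR of the knockdown comparison, and 9 of its CpGs fall in the stretch shown.
AXIN1 intron 1, chr16:401840-401989: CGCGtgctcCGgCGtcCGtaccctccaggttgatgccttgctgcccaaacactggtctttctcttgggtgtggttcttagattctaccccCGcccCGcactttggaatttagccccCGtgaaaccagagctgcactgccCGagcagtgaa
The other AXIN1 DMRs were spread over the gene. The knockdown comparison listed an intron 9 tile (chr16:340001-341000, 40 CpGs) and a tile over the last exon (chr16:337001-338000, 25 CpGs) that PDIA2, a neighbouring protein disulfide isomerase gene, also overlaps. The knockout comparison listed chr16:368001-369000 and chr16:391001-392000 in intron 2, with 41 and 52 CpGs, and chr16:333001-334000 downstream of AXIN1, over PDIA2 and ARHGDIG. The mix listed the intron 2 tile of 52 CpGs. No AXIN1 tile was in both single comparisons, and each listed 3 of the 51 reachable tiles (5.88%; exact binomial 95% interval 1.23 to 16.2%).

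AXIN2, a Wnt target gene whose product feeds back on the pathway, had a single DMR. It lies on chromosome 17 from 63524681 to 63557766 on the minus strand. Its TSS tile held 125 CpGs, 108 of them in reach, and the tile after it 120, and neither was a DMR. The DMR, chr17:63553001-63554000, was in the knockdown comparison and held 15 CpGs, 7 in reach. It lay 4266 bp past the canonical TSS at its middle, over the end of exon 2 with 77 coding bases and intron 2, and 847 bp from the nearest TSS of another basic transcript. Of 14 reachable AXIN2 tiles, 0 were listed in the knockout comparison, which allows a share of up to 21.4%.

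GSK3B and CTNNB1 had few reachable tiles for their length. GSK3B encodes the kinase that phosphorylates β-catenin in the complex and lies on chromosome 3 from 119540168 to 119813841 on the minus strand. Of its 284 tiles 31 were reachable, and its TSS tile (91 CpGs, 58 in reach) was in no table. It had 1 intronic DMR in each single comparison, chr3:119755001-119756000 in intron 1 (10 CpGs) for the knockdown comparison and chr3:119670001-119671000 in intron 2 (6 CpGs) for the knockout comparison. The latter had none in predicted reach with fragments of 40 to 220 bp and 2 CpGs in reach with 20 to 300 bp. CTNNB1, also on chromosome 3, from 41236232 to 41301587 on the plus strand, had 4 reachable tiles of 76 (5.26%), the lowest share of the 10 genes. Its TSS tile (93 CpGs, 73 in reach) and the next (76 CpGs) were among them and in no table. The CTNNB1 DMR, chr3:41290001-41291000 with 6 CpGs, was in the knockout comparison and lay downstream of the canonical transcript, 49504 bp past its TSS, where ULK4 overlaps.

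The TCF and LEF genes share a DNA-binding HMG box, and 20 of their 25 DMRs (80.0%) lay wholly in introns. So did 19 of the 24 DMRs that were reachable (79.2%) and 99 of their 140 reachable tiles (70.7%). TCF7, best known from T cells, lies on chromosome 5 from 133450372 to 133487556 on the plus strand. Its DMRs had their middles between -3872 and 14128 bp from the canonical TSS. Its TSS tile held 143 CpGs, 93 in reach, and was in no table. On either side of it, the knockdown comparison listed chr5:133446001-133447000 and chr5:133448001-133449000 upstream, with 18 and 15 CpGs, and chr5:133451001-133452000 with 48 CpGs over exons 2 and 3. This last tile, with 192 coding bases of the canonical transcript, also holds the TSS of another basic transcript, and its densest stretch had 17 CpGs.
TCF7, exon 2 and its surroundings, chr5:133451016-133451165: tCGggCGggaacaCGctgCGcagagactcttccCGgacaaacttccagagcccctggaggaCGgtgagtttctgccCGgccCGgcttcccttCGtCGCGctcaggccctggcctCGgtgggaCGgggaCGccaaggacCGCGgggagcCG
Intron 3 held a tile of the knockdown comparison and the mix (chr5:133464001-133465000, 15 CpGs) and a tile of the mix alone (chr5:133455001-133456000, 19 CpGs). In the knockdown comparison 4 of 17 reachable TCF7 tiles were DMRs (23.5%; exact binomial 95% interval 6.81 to 49.9%), and in the knockout comparison 0 of 17, which allows a share of up to 17.6%. Whether these shares differ between the comparisons was not tested.

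TCF7L1, which acts mostly as a repressor of Wnt targets, had 9 DMRs and no TSS within 2 kb of any. It lies on chromosome 2 from 85360515 to 85537510 on the plus strand, with 60 of 188 tiles reachable. Its TSS tile (123 CpGs) and the next (85 CpGs) were reachable and in no table, and the nearest DMR, chr2:85356001-85357000 with 38 CpGs, lay upstream, with its middle at -4015 bp from the TSS. Intron 3, of 149 kb and with 37 reachable tiles, held 6 of the 9 DMRs, 5 of the knockdown comparison and 2 of the knockout comparison, with between 6 and 22 CpGs. The intron 3 tile chr2:85487001-85488000, with 17 CpGs, was in all tables.
Farther along, intron 4 held a tile of the knockdown comparison and the mix (chr2:85515001-85516000, 16 CpGs), and intron 5 a tile of the knockout comparison (chr2:85530001-85531000, 13 CpGs).

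TCF7L2, the main TCF of the intestinal epithelium and a type 2 diabetes locus, had 8 DMRs, 5 in each single comparison. It lies on chromosome 10 from 114710006 to 114927437 on the plus strand, with 45 of 228 tiles reachable. The TSS tile (51 CpGs) and the CpG-richer tiles after it (85 and 61 CpGs) were reachable and in no table. Intron 5 of the canonical transcript, of 101.1 kb and with 13 reachable tiles, held 6 of the 8 DMRs. Of these, chr10:114818001-114819000 (19 CpGs) was in both single comparisons, and chr10:114823001-114824000 (13 CpGs) was in all tables. The densest stretch of the latter, with 5 CpGs, opens with a run of GT repeats.
TCF7L2 intron 5, chr10:114823650-114823799: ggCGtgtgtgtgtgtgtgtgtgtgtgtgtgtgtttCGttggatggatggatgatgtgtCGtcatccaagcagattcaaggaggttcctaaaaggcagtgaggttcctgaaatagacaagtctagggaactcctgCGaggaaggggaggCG
The knockdown comparison further listed chr10:114833001-114834000, also in the mix, and chr10:114892001-114893000, with 27 and 15 CpGs. The knockout comparison listed chr10:114885001-114886000 and chr10:114888001-114889000, each with 18 CpGs. The former holds the TSS of a shorter basic transcript inside the gene, and both count as TSS tiles for that reason, although they lie 175494 and 178494 bp past the canonical TSS. Outside intron 5, the knockdown comparison listed chr10:114720001-114721000 in intron 3 (26 CpGs) and the knockout comparison chr10:114734001-114735000 in intron 4 (17 CpGs, none in reach).

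LEF1, which is itself raised by Wnt signalling in many cells, had 3 DMRs. It lies on chromosome 4 from 108968701 to 109090112 on the minus strand, with 18 of 133 tiles reachable. Its TSS tile (47 CpGs) and the next tiles of the gene (107 and 77 CpGs) were reachable and in no table. The tiles around them were DMRs of the knockdown comparison, chr4:109092001-109093000 upstream, over the antisense gene LEF1-AS1, with 33 CpGs, and chr4:109087001-109088000 in intron 1, with 39 CpGs. The latter, also in the mix, holds the TSS and coding bases of another basic transcript. In intron 3, chr4:109047001-109048000 with 9 CpGs was in both single comparisons. The densest stretch of the intron 1 tile held 7 CpGs.
LEF1 intron 1, chr4:109087216-109087365: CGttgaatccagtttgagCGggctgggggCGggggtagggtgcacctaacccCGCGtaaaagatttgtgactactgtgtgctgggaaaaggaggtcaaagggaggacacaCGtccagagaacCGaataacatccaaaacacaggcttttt

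The tiles listed in both single comparisons, which share no library, were thus APC intron 1, APC2 exon 15, TCF7L1 intron 3, TCF7L2 intron 5 in 2 tiles, and LEF1 intron 3. Ly75-OV-S came from LY75 knockdown cells, so the comparisons are related by lineage. Whether a tile differed in the same direction in both was not read. The TCF7L2 tile chr10:114818001-114819000 and the LEF1 tile were not in the mix. These 6 tiles were 15.4% of the 39 DMRs of the knockdown comparison and 35.3% of the 17 of the knockout comparison, where 16.3% and 29.5% of all DMRs were shared. None of the 6 held a TSS of its gene within 2 kb, and 5 were intronic with between 9 and 19 CpGs. Few of their CpGs were in predicted reach: 0 in APC, 3 in APC2, 7 in TCF7L1, 3 and 2 in TCF7L2, and 2 in LEF1.

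CpG content of the DMRs turned on APC2. Over the reachable tiles of the 10 genes, DMRs of the knockdown comparison held a median of 27.5 CpGs and the other tiles 22. Without APC2 the medians were 18.5 and 20, beside 20 and 19 over the genome. DMRs of the knockout comparison held a median of 18 CpGs, beside 22 in the other tiles, and over the genome 18 and 19. These are descriptions with no test, since adjoining tiles share their sequence.

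**Figure D4:**
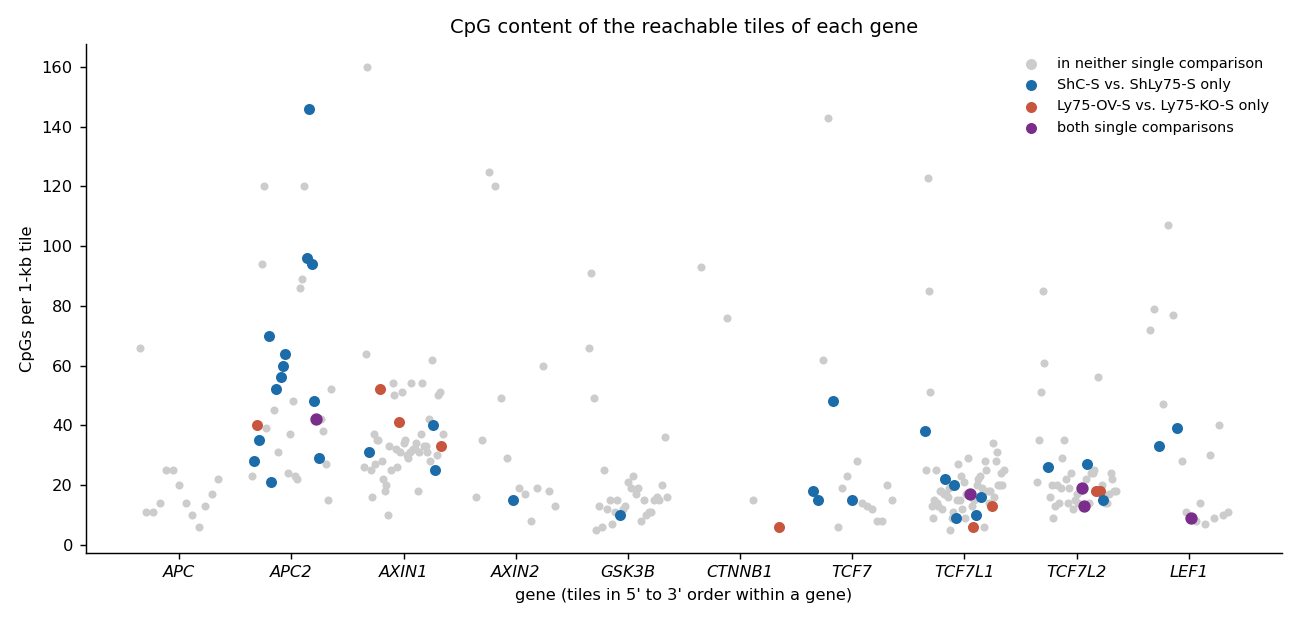
CpGs per 1-kb tile for every reachable tile of each gene, in order along the gene, coloured by the single comparison that listed it (grey, neither). The CpG-richest tiles are grey in each gene but APC2, whose tile of 146 CpGs was a DMR of the knockdown comparison.

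The wider pathway was read from a list of 51 genes in 5 roles, whose windows had a median of 18 reachable tiles. A DMR lay in the window of 34 of them in the knockdown comparison (66.7%), of 28 in the knockout comparison (54.9%) and of 23 in the mix (45.1%). Over all protein-coding genes, whose windows had a median of 10 reachable tiles, the shares were 60.3%, 46.8% and 38.2%. Of the 51 genes, 8 had none in any table, and the same was not counted over all protein-coding genes. Within 2 kb of a TSS the numbers were 15 (29.4%), 7 (13.7%) and 7 (13.7%), close to the 30.1%, 14.2% and 15.2% of all protein-coding genes. A first group held further scaffolds, kinases and phosphatase subunits, and also the DVL and FRAT genes. Of its 17 genes, 11 had a DMR in the knockdown comparison and 9 in the knockout comparison. For the ubiquitin ligase and tankyrase genes, which turn over β-catenin and Axin, it was 1 of 7 (CUL1) and 2 of 7 (BTRC and TNKS). Nuclear co-activators of β-catenin had 4 and 5 of 7. Co-repressors and inhibitors, which include the TLE genes, had 12 and 8 of 13, and Wnt target genes 6 and 4 of 7. The windows of these genes differ in length and reach, and the roles were not tested against each other.
By rule, the genes whose promoters (2 kb on either side of a TSS) held a DMR in both single comparisons were PPP2R1A and PPP2R5B, subunits of protein phosphatase 2A, TLE2, a Groucho-type co-repressor, and SP5, a Wnt-induced transcription factor. SP5 had the same tile in both, chr2:171571001-171572000, with 83 CpGs, and the next tiles, with 90 and 117 CpGs, were DMRs of the knockdown comparison. In PPP2R1A, PPP2R5B and TLE2 the tiles of the comparisons differed. How many of all protein-coding genes met this rule was not counted, so no excess can be read from these genes. TLE2 had chr19:3043001-3044000 in the knockdown comparison and chr19:3047001-3048000 in the knockout comparison. Their middles lay at -14222 and -18222 bp from its canonical TSS, near that of other transcripts.

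**Figure D5:**
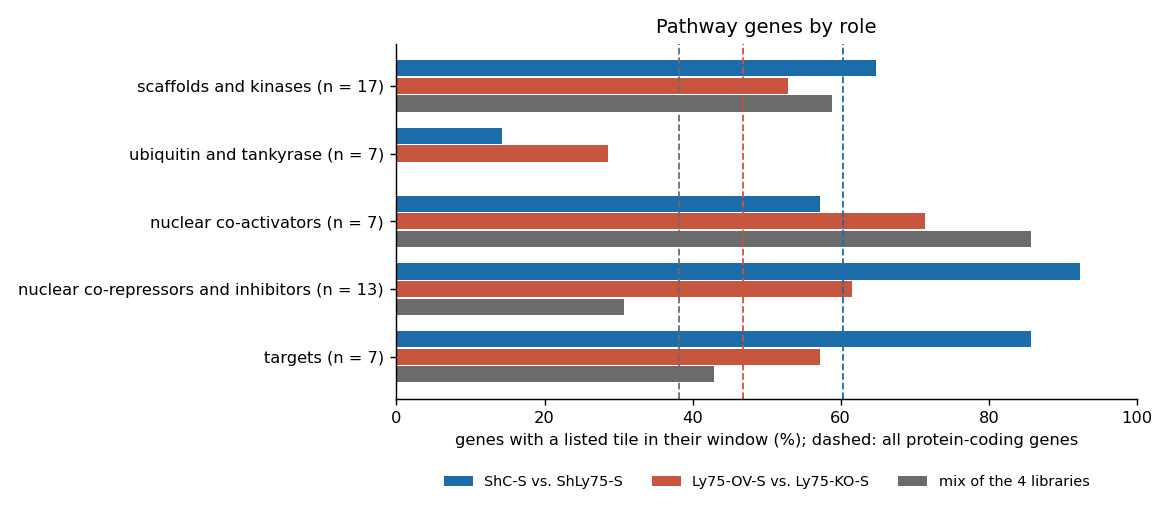
Percent of the pathway genes of each role with a DMR in their window, for each table (bars), with the share of all protein-coding genes as dashed lines in the same colours. Ubiquitin and tankyrase genes had the lowest bars, with 1 and 2 of 7 genes in the single comparisons and 0 in the mix.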

How the data were processed

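RRBS of 4 SKOV3 clones, 1 library each, was analysed from 3 tables that the authors deposited. Per the labels, genomic DNA was cut with MspI, size-selected, bisulfite-converted and sequenced in single reads of 50 bp. The submitters' processing notes name Trim Galore 0.4.1, FastQC, Bismark 0.16.1, methylKit and hg19; the labels also name Trimmomatic. The authors compared libraries in tiles of 1000 bp and deposited the tiles past their thresholds with position, difference in methylation, p-value and q-value. The q-value threshold in the names of the tables is stricter than the adjusted p of the study's methods, and a coverage minimum is not given in the sources used here. Only the positions were used. Columns with values of a single sample number 0, so depth, replicate error and a test between clones could not be had. The mix is, by the study's list of its comparisons, ShC-S with Ly75-OV-S against ShLy75-S with Ly75-KO-S, which the name of its table does not state. That list gives the clone called Ly75-OV-S here as LY75-R-S.

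Positions were matched to GRCh37, the build also named hg19: the last listed tile of chromosome 1 ends at 249158000, within its GRCh37 length of 249250621. Genes, transcripts flagged basic and the canonical transcript came from GENCODE release 44 lifted to GRCh37. A tile belonged to a gene when at least 1 bp overlapped the span extended by 5 kb, and was near a TSS when it overlapped the 2 kb on either side. Reachable tiles were found by cutting the reference at CCGG, and the step was tested on simulated sequence. Shares carry exact (Clopper-Pearson) 95% intervals, and a count of 0 is given with the limit of 3 counts. Stretches shown are the 150 bases of a tile with the most CpGs, outside annotated UTRs; the sequences of 3 tiles are not reported here. All 10 genes are named, with their tiles near a TSS, on coding sequence, in runs or in both single comparisons in full; pathway genes are named where a DMR lay near a TSS in both single comparisons, and CUL1, BTRC and TNKS because of their count. The genes and lists were chosen with earlier results of these data known. Alternatives changed the gene window, the overlap, the fragment sizes, the TSS set and the promoter width, and, chosen after the data had been seen, left out APC2 or split tiles at 50 CpGs. Python 3.11.15, numpy 2.4.6, scipy 1.17.1 and matplotlib 3.10.9 were used.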

Additional observations from a re-analysis of the deposited data

How the results depend on the processing

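Of 82 alternative values, 72 stayed within 1.5 times the main count or within the interval of the main share. Without APC2 (an alternative added once its DMRs were known), the DMRs in the gene windows fell from 39 to 25 in the knockdown comparison and from 15 to 9 in the mix, and the listed share of reachable tiles in the knockdown comparison from 13.2% to 9.49%. Counted over every tile with at least 1 CpG, reachable or not, the shares were 3.10%, 1.35% and 1.19% for the knockdown comparison, the knockout comparison and the mix, beside 1.81%, 0.998% and 0.740% of the genome, and the cause was not tested. Over tiles of 50 or more CpGs, also chosen later, they were 17.4% in the knockdown comparison, 2.17% in the knockout comparison and 10.9% in the mix. With fragments of 100 to 220 bp, the share in the knockout comparison, inside the interval of the main share, was 2.86%. With the TSS of the longest coding transcript alone, 0 genes in place of 1 had a DMR within 2 kb in the knockout comparison, as the TCF7L2 tiles lie at an internal start, and 1 in place of 2 in the mix. Depth limits every tile in an unknown way, and no replicate could be left out, as each clone has 1 library. No paired analysis was possible because the clones share no pairs of replicates.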

Other observations

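The letters CTTTGAT, the core that TCF and LEF proteins bind, on either strand, were searched in the DMRs of the 10 genes. They were in 0 of the 48 DMRs that were reachable, which allows a share of up to 6.25%, and in 10.4% of all reachable tiles of the genome. A match of these letters is a description of the sequence and not a binding site, and the difference was not tested. The tiles were not matched for GC content, and the limit treats adjoining tiles as independent, so no depletion can be read from it.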
